A study of Homo sapiens with 4 samples.

Results

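The miR-15/16 family was followed here as all assays named for miR-15a, miR-15b, miR-16, miR-195, miR-424, miR-497 or miR-503, in either arm. A match on assay names found 12 assays among the 737 different miRNA assays of the plates. These were 7 guide strands and 5 opposite arms, whose names carry an asterisk. The family was defined by assay name, though it was chosen with earlier results of these data known. Quantitative PCR of mature miRNAs had been run on 4 samples of U2OS, an established human osteosarcoma line. For the shDDX1 and shNS samples, a lentivirus brought in a short hairpin RNA against DDX1 or a control hairpin, with selection in 2 µg/ml puromycin. The NCS sample came from U2OS cells given neocarzinostatin at 500 ng/ml for 6 h, and the untreated sample from cells without the drug, with no hairpin named for either. DDX1 is a helicase of the DEAD-box family, and the first pair bears on miRNAs whose maturation needs it. Neocarzinostatin breaks both strands of DNA, and the second pair bears on miRNAs that respond to such breaks. Each group was 1 sample, so the differences below were not checked in replicates and no p-value was computed. The labels give neither the number of hairpins against DDX1 nor whether the cells were a pool or a clone.

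The miR-15/16 family is known for slowing the cell cycle at the G1 to S transition. Its members share a seed, the stretch near the 5′ end that pairs with target mRNAs, and repress cyclins, cyclin-dependent kinases and the survival factor BCL2. They are cut as hairpins from longer primary transcripts by Drosha in the nucleus and by Dicer in the cytoplasm. The hairpin of miR-15a and 1 of the pair of miR-16 hairpins lie in a region lost in many chronic lymphocytic leukaemias. Processing of miR-16 is also known to be raised after DNA damage through p53 and the helicase DDX5.

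The guide strands are shown because the seed, in capitals at bases 2 to 8, defines the family. Sequences and positions are those of RefSeq on GRCh38.p14, in which all 12 assay names matched a mature miRNA.
hsa-miR-15a: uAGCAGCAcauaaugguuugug
hsa-miR-16: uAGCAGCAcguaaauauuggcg
hsa-miR-15b: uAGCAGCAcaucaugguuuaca
hsa-miR-195: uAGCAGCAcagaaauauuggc
hsa-miR-497: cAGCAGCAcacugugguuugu
hsa-miR-424: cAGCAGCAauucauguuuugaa
hsa-miR-503: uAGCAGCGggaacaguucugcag
The seed AGCAGCA was shared by 6 of these guide strands, and by 1 other of the 2370 mature names in the RefSeq table. miR-503 had the seed AGCAGCG, which no other mature name carried. Outside the seed, miR-195 stood closest to miR-16. Over the first 21 bases, counted from the 5′ end, they differed only by G10A and U11G, the base of miR-16 being written first. miR-15a matched miR-16 at 15 of those 21 bases and miR-15b at 14.

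The opposite arms are shown because they come from the same hairpins but do not carry the seed. The capitals mark GCUGC, which was present in all 5 and in 2.78% of mature RefSeq miRNA names. GCUGC is complementary to GCAGC of the guide seed.
hsa-miR-15a*: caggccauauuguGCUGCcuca
hsa-miR-15b*: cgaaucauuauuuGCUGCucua
hsa-miR-16-2*: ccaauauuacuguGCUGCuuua
hsa-miR-195*: ccaauauuggcuguGCUGCucc
hsa-miR-424*: caaaacgugaggcGCUGCuau

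The guide strands come from 8 hairpins in 4 pairs. MIR15A and MIR16-1 lie 57 bases apart at chr13:50048973-50049201 on the minus strand, within the lncRNA gene DLEU2. MIR15B and MIR16-2 lie 59 bases apart at chr3:160404588-160404825 on the plus strand, within SMC4, a condensin subunit gene. MIR497 and MIR195 lie 209 bases apart at chr17:7017615-7018022 on the minus strand, within the lncRNA gene MIR497HG. MIR424 and MIR503 lie 215 bases apart at chrX:134546328-134546711 on the minus strand. The miR-16 assay cannot separate its loci, because both hairpins give the same mature strand. Both are printed with that strand in capitals, to show what surrounds it.
MIR16-1: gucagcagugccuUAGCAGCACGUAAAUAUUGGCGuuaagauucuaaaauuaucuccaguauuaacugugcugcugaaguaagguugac
MIR16-2: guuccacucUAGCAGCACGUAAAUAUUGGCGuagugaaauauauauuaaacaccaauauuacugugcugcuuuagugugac
Of these, the hairpin on chromosome 3 has an opposite-arm assay among the 12, miR-16-2*.

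The readout is the quantification cycle (Ct), the PCR cycle at which a well passed the signal threshold, so an earlier Ct means more template. Of the 740 miRNA wells, Ct was under 35 in 723 in shDDX1, 732 in shNS, 591 in NCS and 521 in untreated cells. The mean Ct over the 499 wells under 35 in all 4 samples was 26.1 in shDDX1, 25.8 in shNS, 29.4 in NCS and 30.1 in untreated cells. A level was minus the Ct, centred in each sample on that mean, and a log2 ratio was the difference of levels, each cycle counting as a doubling. An assay was quantified in a comparison where both Ct values were under 35, and was called higher or lower at 2-fold. Ratios were taken under 9 settings in all, this one as the main setting, 6 other scalings, subtraction of surrounding wells and the authors' deposited normalized table. Most settings shift a sample or a panel as a whole, so a count of settings is not independent support. For the family assays in shDDX1 over shNS, the authors' table and the scaling without centring gave the same ratios. The technical SD of a log2 ratio was 0.38 for shDDX1 over shNS and 0.79 for NCS over untreated. It came from 7 assays read on both panels, not all of them miRNA assays and none of them in the family. The guide strands are all on panel I and the opposite arms all on panel II. The panels differed as a whole. The median log2 ratio of panel I was -0.42 for shDDX1 and 0.30 for NCS, and that of panel II was 0.46 for shDDX1 and -0.84 for NCS. Whether this difference accounts for a contrast between arms was not tested. Of 9 water wells, 7 gave a Ct in shDDX1, 6 in shNS and 0 in the NCS and untreated samples, the earliest at 26.5 in shDDX1 and 26.6 in shNS. In shDDX1 7 of the 12 family assays, and in shNS 6, read later than that water well. It is however on panel II, and the earliest water well of panel I, which holds the guide strands, read 27.3 in shDDX1 and 27.8 in shNS. miR-195, miR-497, miR-424 and miR-503 read later than this panel I well in shDDX1 and earlier in shNS.

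**Figure D1:**
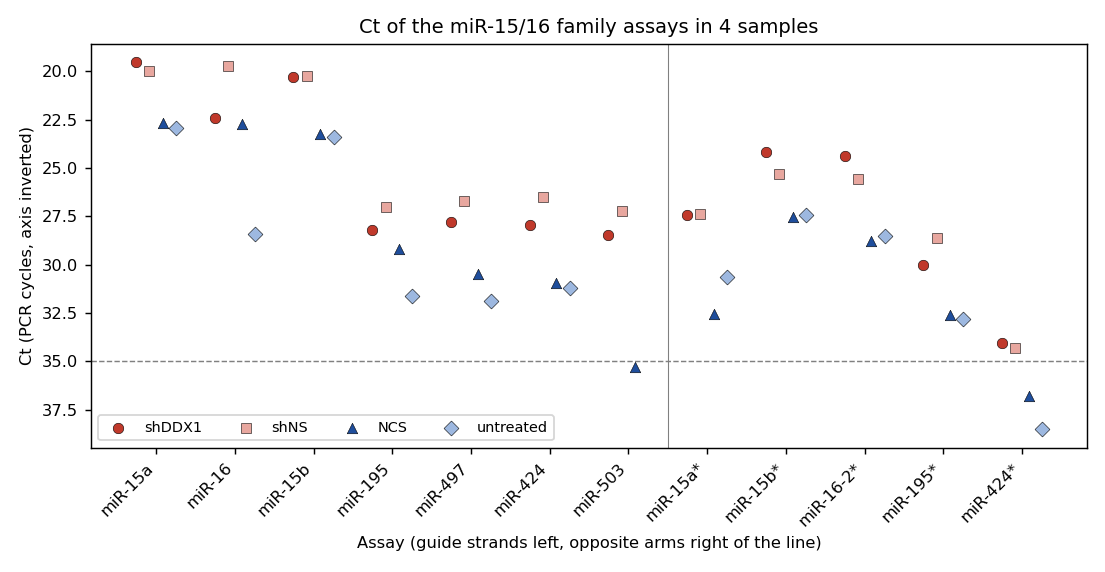
Ct in PCR cycles (inverted axis, earlier readings at the top) of the 12 family assays in the 4 samples, 1 well each, with the dashed line at Ct 35. miR-15a and miR-15b kept close pairs of points, whereas miR-16 in untreated cells, at 28.4, lay far from its other 3 readings, and miR-503 has no point for untreated cells, where it was undetermined.

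miR-15a and miR-15b were among the earliest assays in every sample and stayed within 2-fold in both comparisons under the main setting. hsa-miR-15a, the partner of miR-16 on chromosome 13, read Ct 19.5 in shDDX1 and 20.0 in shNS, and 22.7 in NCS and 22.9 in untreated cells. Its log2 ratio was 0.74 for shDDX1 over shNS and -0.52 for NCS over untreated. hsa-miR-15b, the partner of miR-16 on chromosome 3, read 20.3 in shDDX1 and 20.2 in shNS, and 23.3 in NCS and 23.4 in untreated cells. The ratio of miR-15a minus that of miR-15b was 0.46 in shDDX1 and 0.10 after NCS. The 2-fold call depended on the setting. In shDDX1 miR-15a was past 2-fold higher in 2 of the 9 settings, at 1.16 with each panel centred on its own and 1.19 with plate calibrators. After NCS it was past 2-fold lower in 1, at -1.32 centred per panel. miR-15b was past 2-fold lower after NCS in 2, at -1.42 centred per panel and -1.03 with plate calibrators, and in none in shDDX1. Ranked by Ct among the 740 wells, miR-15a was between 17th and 32nd and miR-15b between 20th and 37th over the 4 samples. These ranks compare assays whose PCR efficiencies are not known here.

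hsa-miR-16 did not follow either partner. It read Ct 22.4 in shDDX1 and 19.7 in shNS, and 22.7 in NCS and 28.4 in untreated cells. It was therefore 5.3-fold lower in shDDX1, with a log2 ratio of -2.41, and 31.6-fold higher after NCS, with a log2 ratio of 4.98. This placed it as the 33rd lowest of 716 quantified assays in shDDX1 and the 13th highest of 498 after NCS. Its centred level was 3.72 in shDDX1 and 6.13 in shNS, and 6.66 in NCS and 1.68 in untreated cells. The NCS sample was thus the highest, followed by shNS, shDDX1 and untreated cells after gaps of 0.53, 2.41 and 2.04. No error was estimated for a gap between samples of different pairs. The low reading was thus that of untreated cells in one pair and of shDDX1 in the other. Against miR-15a, miR-16 was 8.84-fold lower in shDDX1 and 45.4-fold higher after NCS, and against miR-15b 6.41-fold lower and 48.7-fold higher. All 3 assays are on panel I, so the settings that shift a sample or a panel as a whole leave these differences as they are.

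The wells around miR-16 moved with it. Its well, F11, lies in the middle of panel I, while those of miR-15a and miR-15b lie in plate columns 1 and 2. Of the 24 miRNA wells within 2 rows and 2 columns of miR-16, 19 were called lower in shDDX1 and 0 higher, and their median log2 ratio was -1.63. After NCS only 7 of the 24 were quantified, with a median of 3.25, and 4 of the 7 were at least 2-fold higher. In the untreated sample 7 of these 24 wells read under Ct 35, against 24 in shDDX1, 24 in shNS and 18 in NCS. With the median of the surrounding wells subtracted, miR-16 was at -0.78 in shDDX1, within 2-fold, and at 1.74 after NCS. On that scale its difference from miR-15a was -1.18 in shDDX1 and 1.64 after NCS, and that from miR-15b -0.74 and 1.78. For miR-16 the NCS values on that scale rest on the 7 quantified wells. The other surrounding wells were not under Ct 35 in untreated cells, so they could not enter the median. The part of plate position in the miR-16 readings was not tested beyond this subtraction.

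**Figure D2:**
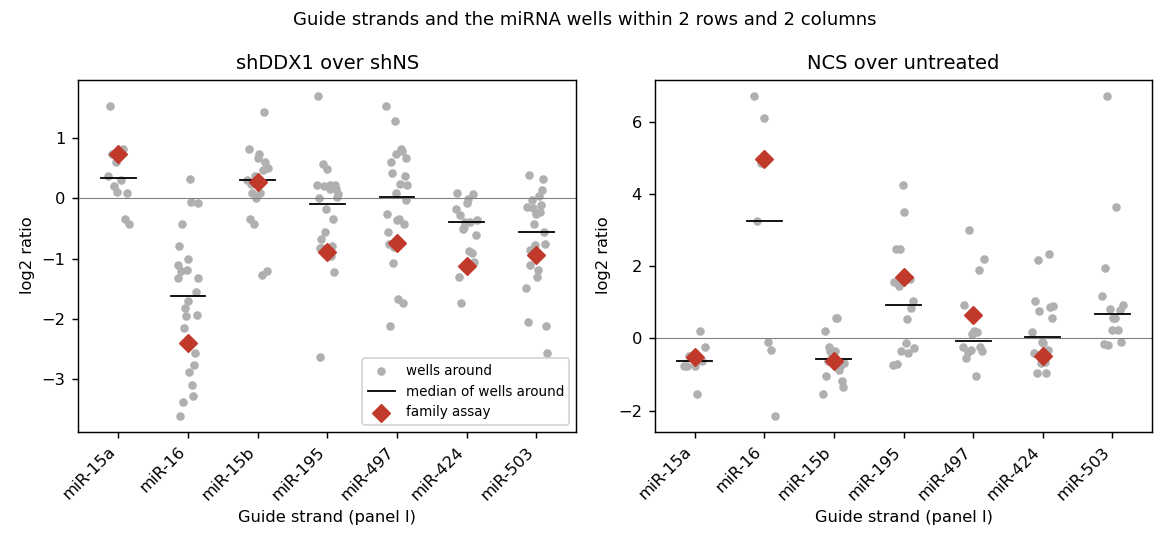
Log2 ratio of each of the 7 guide strands (diamonds) with those of the quantified miRNA wells within 2 rows and 2 columns on the plate (grey points) and their median (bar), for shDDX1 over shNS on the left and NCS over untreated on the right. The wells around miR-16 have medians of -1.63 and 3.25, far from 0, while those around miR-15a and miR-15b lie near their assays; miR-503 has no diamond on the right because it was not quantified there.

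The guide strands of the other pairs of hairpins had log2 ratios between -1.13 and -0.74 in shDDX1, and of these 4 only miR-424 passed 2-fold. miR-195 read Ct 28.2 in shDDX1 and 27.0 in shNS, a log2 ratio of -0.89. Its neighbour miR-497 read 27.8 in shDDX1 and 26.7 in shNS, a ratio of -0.74. Both miR-195 and miR-497 lie in one lncRNA gene and are known as repressors of cell cycle genes, and their ratios were 0.16 apart. On chromosome X, miR-424 read 28.0 in shDDX1 and 26.5 in shNS and was 2.18-fold lower, a log2 ratio of -1.13. miR-503 read 28.5 in shDDX1 and 27.2 in shNS, a ratio of -0.93, which was 0.19 from that of miR-424. Both are known to be induced during muscle differentiation and to repress CDC25A, a phosphatase that activates cyclin-dependent kinases. These 4 ratios were negative in all 9 settings, from -1.79 to -0.28 over the 4 assays. miR-424 passed 2-fold in 6 of the 9 settings, miR-503 in 5, and miR-195 and miR-497 in 4 each. The earliest water well of panel I read 27.3 in shDDX1 and 27.8 in shNS. All 4 guide strands read later than it in shDDX1 and earlier in shNS, and the part of background signal in them was not tested.

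Over the 7 guide strands, 2 were called lower in shDDX1, miR-16 and miR-424, and 0 were higher, where 17.3% of all quantified assays were lower and 11% higher. Among panel I assays the lower share was 29%, so 2 of 7 lay near it. The median log2 ratio of the guide strands was -0.89, beside a median of 0.04 over all assays and -0.42 over panel I. In columns 7 to 18 of panel I, which hold miR-16, miR-195 and miR-503, 41.1% of assays were lower. In its outer columns, which hold miR-15a, miR-15b, miR-424 and miR-497, 16.6% were lower.

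After NCS the values of these guide strands were spread more widely. miR-195 read Ct 29.2 in NCS and 31.6 in untreated cells and was 3.25-fold higher, a log2 ratio of 1.70. miR-497 read 30.5 in NCS and 31.9 in untreated cells, a ratio of 0.66, and the pair was 1.04 apart. With surrounding wells subtracted these became 0.77 and 0.72, only 0.05 apart. miR-424 read 31.0 in NCS and 31.2 in untreated cells, a ratio of -0.49. miR-503 was undetermined in untreated cells and read 35.3 in NCS, past the limit of 35 in both, so no ratio was taken. The authors' deposited normalized table nevertheless gives shifted Ct values of 27.9 for NCS and 30.4 for untreated cells, a difference of 2.52 cycles, and the origin of a value for an undetermined well is not stated there. Of the 6 quantified guide strands 2, miR-16 and miR-195, were at least 2-fold higher after NCS and 0 were lower. The shares over all assays were 16.9% higher and 22.3% lower, and over panel I 30% and 4.74%. Both called guide strands lie in columns 7 to 18 of panel I, where 55.8% of assays were higher and the median was 1.21, against 9.29% higher in its outer columns. The median of the 6 was 0.09, beside -0.38 over all assays and 0.30 over panel I.

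Of the guide strands, miR-16 alone was called lower in shDDX1 and also called higher after NCS. Of the assays quantified in both comparisons 6.65% met both conditions, and in columns 7 to 18 of panel I 23%. The comparisons have no sample in common.

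**Figure D3:**
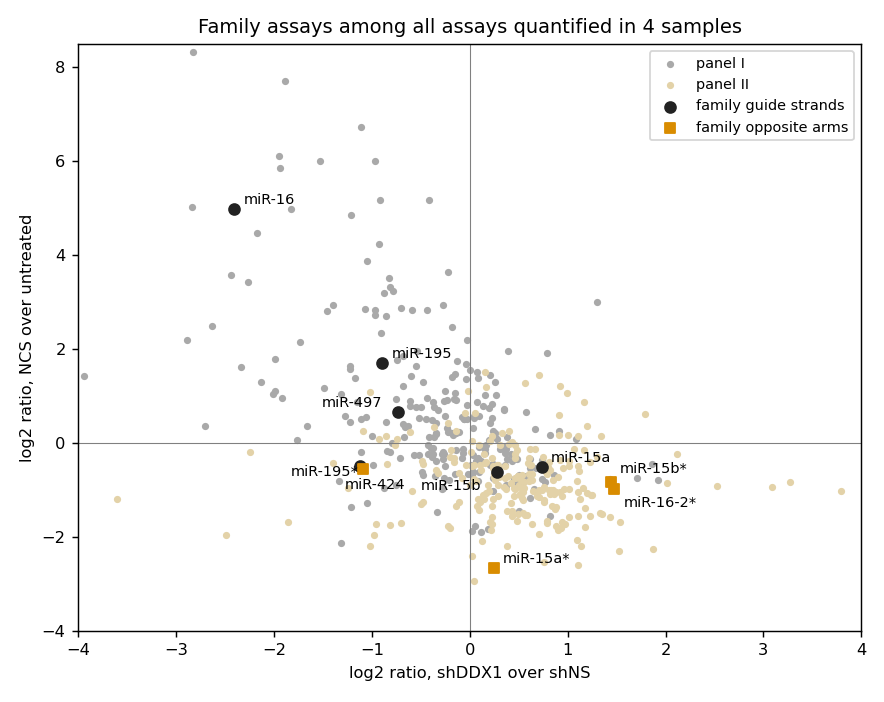
Log2 ratio for shDDX1 over shNS (x axis) and NCS over untreated (y axis) of the assays quantified in all 4 samples, 496 in number, of which 5 lie beyond the axes. Grey points are panel I, pale points panel II, dark circles the 6 family guide strands and orange squares the 4 opposite arms quantified in both; miR-16 sits at the upper left and miR-15a* is the lowest of the family.

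Of the opposite arms, those of the chromosome 3 hairpins were alike and higher in shDDX1. miR-15b* read Ct 24.2 in shDDX1 and 25.3 in shNS and was 2.72-fold higher. miR-16-2* read 24.4 in shDDX1 and 25.6 in shNS and was 2.78-fold higher. Their log2 ratios of 1.44 and 1.48 were 0.03 apart. Both assays are on panel II, so settings that shift a sample or a panel as a whole leave this difference as it is. With surrounding wells subtracted the ratios were 0.05 apart. The ratios were above 0 in each of the 9 settings and passed 2-fold in 5 and 7 of them. Panel II, on which both lie, had 19.7% of its assays at least 2-fold higher, and the ratios were 1.01 and 1.04 with each panel centred on its own. After NCS miR-15b* read 27.5 and 27.4 in untreated cells, and miR-16-2* 28.8 and 28.5 in untreated cells. Both were within 2-fold there, at -0.83 and -0.97, close to the panel II median of -0.84.

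miR-16 and the opposite arm of its chromosome 3 hairpin thus differed in sign in both comparisons. The NCS ratio of miR-16-2* was however only -0.15 with each panel centred on its own. The log2 ratio of miR-16 minus that of miR-16-2* was -3.88 in shDDX1, or -3.03 with each panel centred on its own. After NCS this difference was 5.95, or 4.33 with centring per panel. With surrounding wells subtracted it was -1.72 in shDDX1 and 1.89 after NCS. For miR-15b minus miR-15b* the difference was -1.17 in shDDX1, but -0.31 when each panel was centred on its own.

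The other opposite arms showed a different pattern. miR-195* read Ct 30.0 in shDDX1 and 28.6 in shNS and was 2.13-fold lower, with a log2 ratio of -1.09. It was at least 2-fold lower in all 9 settings, against 5.14% of panel II assays lower under the main setting, and 0 of the 21 quantified wells around it were as low. In both samples miR-195* read later than the earliest water well of panel II, at 26.5 in shDDX1 and 26.6 in shNS. The part of background signal in these readings was not tested. The guide strand of the same hairpin, miR-195, stood at -0.89, within 2-fold. After NCS miR-195* read 32.6 and in untreated cells 32.8, within 2-fold. The ratio of miR-195 minus that of miR-195* was 2.25 there in the main setting, but 0.62 with each panel centred on its own and 0.50 with surrounding wells subtracted. In those settings miR-195 was at 0.90 and 0.77, within 2-fold.

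miR-15a* was the lowest family assay after NCS. It read Ct 32.6 in NCS and 30.6 in untreated cells and was 6.35-fold lower, a log2 ratio of -2.67 and the third lowest of the 498 quantified assays. On panel II 40.4% of assays were at least 2-fold lower after NCS, and with the panels centred separately miR-15a* was at -1.84. It stayed at least 2-fold lower in all 9 settings, between -2.67 and -1.75, and below all 9 quantified wells around it. In shDDX1 it read 27.4 and in shNS also 27.4, a ratio of 0.25 whose sign changed between settings. The guide strand of the same hairpin, miR-15a, was at -0.52 after NCS, and at -1.32 with the panels centred separately. The ratio of miR-15a minus that of miR-15a* after NCS was 2.15 in the main setting and 0.52 with the panels centred separately. miR-424* was read late, at 34.1 in shDDX1 and 34.3 in shNS, and at 36.8 in NCS and 38.5 in untreated cells, so it was quantified only in the first pair, at 0.53.

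Over the 5 opposite arms, 1 was at least 2-fold lower and 2 higher in shDDX1, with a median of 0.53. The shares in shDDX1 were 17.3% lower and 11% higher over all assays, and 5.14% and 19.7% over panel II. Over the 4 quantified after NCS, 1 was lower and 0 higher, with a median of -0.90. The shares after NCS were 22.3% lower and 16.9% higher over all assays, and 40.4% and 3.27% over panel II. The medians of the opposite arms lay near those of panel II, 0.46 and -0.84.

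**Figure D4:**
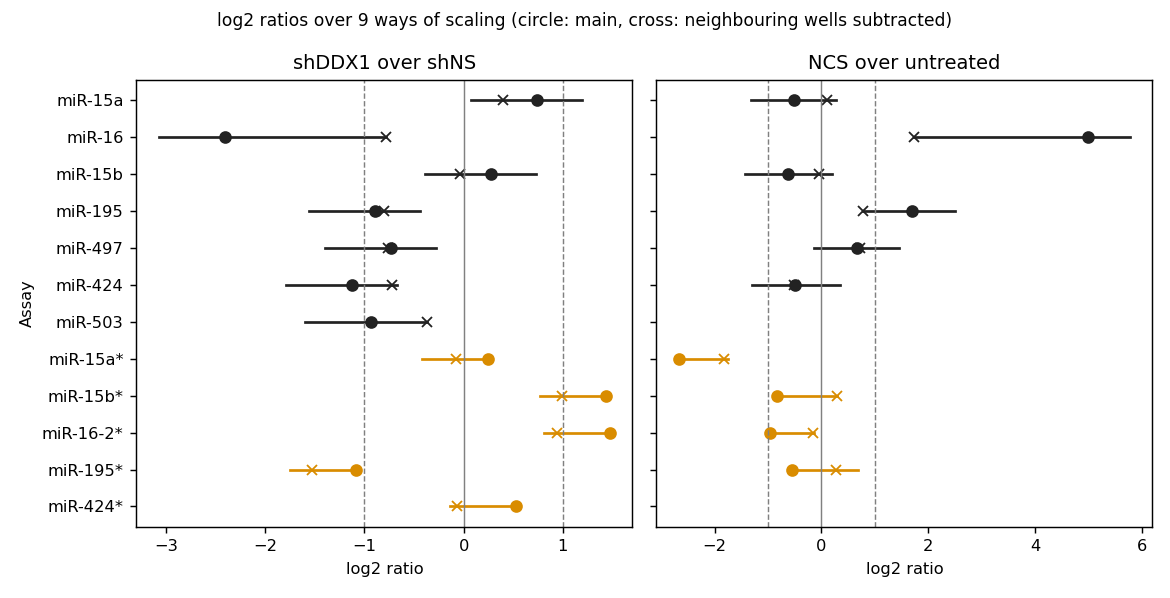
Log2 ratio of each family assay for shDDX1 over shNS (left) and NCS over untreated (right); the circle is the main setting, the cross the value with surrounding wells subtracted, and the line runs from the lowest to the highest of 9 settings. Dashed lines mark 2-fold; black stands for guide strands and orange for opposite arms. miR-16 lies beyond 2-fold in every setting on the right and in 8 of 9 on the left, and miR-195* and miR-15a* each stay beyond 2-fold in 1 comparison. The cross for miR-16 on the right rests on only 7 of its 24 surrounding wells.

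Across the 4 samples the family split by level into early and late assays. On the centred scale, where 0 is the mean of the common assays, miR-15a lay between 5.86 and 7.19 and miR-15b between 5.59 and 6.72, both lowest in shNS and highest in untreated cells. For miR-15a the gap between shDDX1 and shNS was 0.74, above that pair's technical SD of 0.38 but below 2 SD, 0.77. For miR-15b the gap was 0.27, below 1 SD. The gaps between NCS and untreated cells, 0.52 and 0.62, were below the SD of 0.79 for that pair. These SDs cover repeated wells only, not separate cultures. Because those wells were on different panels, the SDs also hold the difference between panels. miR-497 spanned 0.89 and miR-424 1.13 over the 4 samples, and both were highest in shNS. miR-195 spanned 2.26, and NCS stood 1.37 above shNS, the next sample. miR-15b* had its widest gap, 1.30, between the lowest sample, shNS, and NCS, and miR-15a* its widest, 1.65, between the lowest sample, NCS, and shNS. For miR-16-2* the level was 1.74 in shDDX1 and 0.27 in shNS, and 0.61 in NCS and 1.58 in untreated cells. In the main setting the samples of miR-16-2* formed a higher pair, shDDX1 and untreated, and a lower pair, NCS and shNS, the reverse of miR-16. Panel II as a whole moved the same way, with medians of 0.46 for shDDX1 and -0.84 for NCS. With each panel centred on its own, the NCS ratio of miR-16-2* was -0.15, smaller in size than the SD of 0.79. The part of the panel difference in this pattern was not tested. Values of different assays on this scale rest on their PCR efficiencies, and the knockdown and NCS pairs differed by several cycles in mean Ct. The plate calibrators of panel I had a mean Ct of 18.5 in shDDX1, 17.8 in shNS, 20.7 in NCS and 21.5 in untreated cells. Those of panel II had 16.4, 16.7, 18.1 and 18.1 in the same order. The part of such differences between plates in the order of the samples was not tested.

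Other miRNAs that share part of the seed stayed within 2-fold. miR-103 and miR-107 begin with AGCAGC, the same 6 bases that open the family seed, set 1 base nearer the 5′ end.
hsa-miR-103: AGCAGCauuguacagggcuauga
hsa-miR-107: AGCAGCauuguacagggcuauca
miR-103 had log2 ratios of 0.45 in shDDX1 and -0.77 after NCS, miR-107 of -0.85 in shDDX1 and 0.46 after NCS, and miR-646 of 0.59 in shDDX1 and -0.43 after NCS. miR-922, which carries GCAGCA from its first base, was not quantified in either comparison. Near MIR424 and MIR503 on chromosome X lie the hairpins of miR-542 and miR-450. In shDDX1 miR-542-5p was 2.64-fold lower and miR-450a had a ratio of -0.95, while miR-450b-3p was 2.51-fold higher and miR-450b-5p had a ratio of 0.81. The first pair are on panel I and the second on panel II. After NCS only miR-450b-3p was quantified, and it was 2.82-fold lower. miR-143 and miR-145, whose processing is known to be raised with that of miR-16 by p53 and DDX5, had ratios of 0.88 and -0.62 after NCS and of -0.38 and 0.09 in shDDX1, all within 2-fold.

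Among 26 miRNAs known to restrain the G1 to S transition, 8 were called lower in shDDX1 and 1 higher, with a median of -0.23. The lowest was miR-26b at -2.89 and the highest miR-29b at 1.86. After NCS 8 of the 22 quantified were higher and 0 lower, from miR-103 at -0.77 to let-7a at 7.71, with a median of 0.40. Of 14 miRNAs known to promote proliferation, 0 were lower and 0 higher in shDDX1, from miR-221 at -0.57 to miR-19b at 0.74. After NCS 4 of 13 were higher and 0 lower, from miR-19b at -0.77 to miR-21 at 2.95. Both lists were read on panel I, miR-103 on panel II too, and of all panel I assays 29% were lower in shDDX1 and 30% higher after NCS. Over all assays these shares were 17.3% and 16.9%. Of the 8 called lower in shDDX1, all but let-7c lie in columns 7 to 18 of panel I. The 4 proliferation-promoting miRNAs called higher after NCS lie there too. In those columns the shares were 41.1% and 55.8%, and in the outer columns 16.6% and 9.29%. The part of plate position in these counts was not tested. The lists were chosen with earlier results of these data known.

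The assays whose 4 levels lay nearest to the mean of the 6 quantified guide strands were miR-324-5p, miR-23b, miR-660, miR-25 and miR-192. Likeness was the root mean square distance over the 4 samples, after each assay was centred on its own mean, and it was between 0.14 and 0.18 for these 5. Of the guide strands miR-497 was nearest to the family mean, at 0.23, and miR-16 farthest, at 1.62, the 458th of 496 assays. miR-195 was 72nd, miR-424 96th, miR-15b 157th and miR-15a 193rd, so most guide strands did not lie close to that mean. The mean includes miR-16, whose NCS ratio was 4.98 where the guide strand median was 0.09. The 5 assays named are therefore near the mean and not near each member.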

How the data were processed

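The authors deposited a table of Ct values, in PCR cycles, for 768 wells on 2 panels in each of 4 samples, a normalized table of shifted Ct values and a fold table, which was not used. Per the labels' protocols, total RNA from Trizol was turned into cDNA with Exiqon's kit and read with SYBR Green. The instrument and its threshold are not given in the sources used here. Levels were computed in Python 3.11.15 with pandas 2.3.3 as described in the report. The 3 miRNAs read on both panels were averaged. The calculation was tested on simulated data. With 1 sample per group nothing was tested for significance. Family members were named in full. Other names followed a rule on seed, locus, 2 lists (lowest and highest member) and likeness. Members and lists were chosen with earlier results of these data known. The assay of miR-542-3p was not analysed here. Alternatives were 6 other scalings, subtraction of the median of surrounding wells, the authors' normalized table, limits of Ct 32 and 37, and thresholds of 1.5-fold and 4-fold.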

Additional observations from a re-analysis of the deposited data

Results flagged for a closer look

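On panel II the water well P22, next to that of miR-15a* in P21, gave a Ct of 26.5 in shDDX1 and 26.6 in shNS, a signal outside the miRNA measurement. miR-15a* itself read 27.4 in shDDX1 and 27.4 in shNS, later than the water well. The water well gave no Ct in the NCS and untreated samples, in which miR-15a* differed by 6.35-fold. The part of this background in the miR-15a* readings of the knockdown pair was not tested.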

How the results depend on the processing

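No paired analysis was possible because every group is a single sample. No log2 ratio of a family assay that was called in the main setting changed sign in another setting. Ratios called only in other settings did so after NCS, for miR-15a, miR-15b, miR-424 and miR-497. Of the 12 family assays, those at least 2-fold lower in shDDX1 numbered 3. The number was 6 with small RNA references, reference miRNAs, no centring or the authors' deposited normalized table, and 6 at 1.5-fold. It was 1 at 4-fold or with surrounding wells subtracted. Those higher in shDDX1 numbered 2, but 1 with reference miRNAs and 0 with small RNA references, surrounding wells subtracted or at 4-fold. Those lower after NCS numbered 1, but 4 centred per panel or at 1.5-fold, 2 with plate calibrators and 0 under Ct 32. Those higher after NCS numbered 2, but 1 centred per panel, with surrounding wells subtracted or at 4-fold. Guide strands lower in shDDX1 and higher after NCS numbered 1, but 3 with small RNA references, no centring, the authors' deposited normalized table or at 1.5-fold, 2 with reference miRNAs and 0 with surrounding wells subtracted. The guide strand median for shDDX1, -0.89, was -1.56 with small RNA references, -1.36 with reference miRNAs, -0.47 centred per panel and -0.44 with plate calibrators. That for NCS, 0.09, was -0.72 centred per panel and -0.32 with plate calibrators, but 0.87 with small RNA references or the authors' deposited normalized table and 0.82 without centring. Over all assays in the main setting, 17.3% were lower and 11% higher in shDDX1. After NCS 22.3% of all assays were lower and 16.9% higher. These shares were not computed for the other settings. Over all assays the median was shifted from 0.04 to -0.63 in shDDX1 and from -0.38 to 0.40 after NCS by small RNA references. The causes were not tested. Late readings limit miR-503 and miR-424* in the NCS pair.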
